A study of Mus musculus with 9 samples.

Results

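Sox2 binding was examined near 10 cell cycle genes: the Myc family genes Mycn and Myc, the tumour suppressors Rb1 and Trp53, the kinase inhibitor genes Cdkn1a and Cdkn2a, the kinase genes Cdk4 and Cdk6, and the D-type cyclin genes Ccnd1 and Ccnd2. These 10 of the 21883 protein-coding genes in the RefSeq table (GRCm38.p6, the same build as mm10) were chosen by name, and each was given every listed binding summit that fell inside its span or no more than 50 kb away. The assay was ChIP-seq, in which chromatin is precipitated with an antibody against Sox2 and the attached DNA is sequenced, here in lung epithelial cells of C57BL/6 mice, aged 8 weeks by the labels. The 3 Sox2 ChIP libraries came from cells with ectopic Sox2 expression and Nkx2-1 deletion, from cells with ectopic Sox2 expression and intact Nkx2-1, and from wildtype cells. The study asked where Sox2 binds with and without Nkx2-1. The labels used here do not say which promoter or Cre line made either change, nor how many animals gave each library. Each condition has 1 library, so differences between conditions were not checked on replicates and carry no p-value. Intervals are 95% intervals that cover counting error only.

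Sox2 is a transcription factor of stem cells and of the proximal airway and oesophagus, and Nkx2-1 is the factor that maintains lung identity. The genes described here form the switch that admits a cell to DNA synthesis. D-type cyclins activate the kinases Cdk4 and Cdk6, which phosphorylate the Rb protein and release E2F factors. Myc proteins push the cell through this switch. The inhibitors encoded by Cdkn1a and Cdkn2a hold it back, the first as a target of p53 and the second by blocking Cdk4 and Cdk6 and, through its other product Arf, by stabilising p53.

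The lists held 2589 summits with ectopic Sox2 and Nkx2-1 deletion, 229 with ectopic Sox2, while the wildtype list held 552. The mean ChIP coverage recovered from the listed values was 1.45, 0.764 and 0.963 fragments per position in the same order, so the depth with Nkx2-1 deletion was 1.90 times that with ectopic Sox2 and 1.51 times that of wildtype. The weakest summit listed rested on 15 fragments with Nkx2-1 deletion and on 10 in each of the other lists. Peak lists hold no expression values, so neither the cell type nor the presence of Sox2 and loss of Nkx2-1 could be checked. Among 12 marker genes of lung cell types, 3 stood no more than 50 kb from the Nkx2-1 deleted list's summits: Krt5, Trp63 and Scgb1a1. The ectopic Sox2 list placed a summit that near to 1 of the 12 (Krt5), and the wildtype list to 2 (Pecam1 and Trp63). Shares of all protein-coding genes by the same rule were 13.1%, 1.53% and 2.85% in that order of lists. The markers not named here were that near to no summit in any list.

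Sox2 summits lay near 3 of the 10 genes, namely Mycn, Rb1 and Cdk6, and each of the 3 was listed in a different set of libraries. The lists differ in depth, so absence from a list is not by itself absence of binding. With ectopic Sox2 and Nkx2-1 deletion, 1 of the 10 genes had a summit within 50 kb (Rb1), where 13.1% of all protein-coding genes did. With ectopic Sox2, 1 of 10 had one (Mycn), against 1.53% of all genes. In wildtype, 3 of 10 had one (Mycn, Rb1 and Cdk6), against 2.85% of all genes. Together the lists held 6 summits within 50 kb of these genes, and 4 of them lay inside the gene. These 4 lay in Rb1 and Cdk6, whose spans of 133 kb and 190 kb are the longest of the 10, with Ccnd2 next at 27.0 kb. A longer span has more room for a summit, and the shares of all genes were not matched for gene length. The other 7 genes, Myc, Trp53, Cdkn1a, Cdkn2a, Cdk4, Ccnd1 and Ccnd2, had none in any list. Just inside the 50 kb limit lay the Mycn summits at 41.4 kb, and just outside it lay a Cdk6 summit at 65.2 kb with ectopic Sox2 and a Trp53 summit at 74.4 kb with Nkx2-1 deletion.

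The start of a gene nested inside Rb1 was the one gene start at these loci that a listed region covered, and its sequence is shown together with the starts of 3 of the genes themselves. RefSeq start windows (GRCm38.p6) were at hand for 6 of the 10 genes, in 8 windows, and no listed region in any library overlapped any of the 8. Each sequence below is the 250 bases before the annotated start, 5′ to 3′ on the gene's strand. Capitals mark the words searched on both strands: the Sox core (ACAAAG or ACAATG), the Nkx2-1 core (CAAGTG), the Myc E-box (CACGTG), E2F (GCGGGAA), AP-1 (TGANTCA) and Tead (GGAATG).
Lpar6, chr14:73237641-73237890, plus strand: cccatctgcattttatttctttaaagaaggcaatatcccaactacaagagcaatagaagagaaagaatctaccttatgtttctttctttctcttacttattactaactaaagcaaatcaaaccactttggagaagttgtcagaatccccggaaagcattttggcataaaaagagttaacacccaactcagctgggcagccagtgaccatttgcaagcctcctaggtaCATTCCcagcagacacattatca
Cdk6, chr5:3343643-3343892, plus strand: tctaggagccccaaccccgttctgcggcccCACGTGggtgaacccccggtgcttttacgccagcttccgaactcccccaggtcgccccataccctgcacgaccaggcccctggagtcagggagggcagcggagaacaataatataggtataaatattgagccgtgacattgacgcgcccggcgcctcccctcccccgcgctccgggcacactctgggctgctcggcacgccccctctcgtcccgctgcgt
Cdk4, chr10:127063285-127063534, plus strand: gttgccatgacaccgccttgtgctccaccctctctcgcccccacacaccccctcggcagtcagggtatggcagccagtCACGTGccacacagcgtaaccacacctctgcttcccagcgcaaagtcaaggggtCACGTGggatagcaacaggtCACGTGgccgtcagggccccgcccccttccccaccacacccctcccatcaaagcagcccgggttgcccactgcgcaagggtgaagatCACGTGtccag
Trp53, chr11:69580109-69580358, plus strand: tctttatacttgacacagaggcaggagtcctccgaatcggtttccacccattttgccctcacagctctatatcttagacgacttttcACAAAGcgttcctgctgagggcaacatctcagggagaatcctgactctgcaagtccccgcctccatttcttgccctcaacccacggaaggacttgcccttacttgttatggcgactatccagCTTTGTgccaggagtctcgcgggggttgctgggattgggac

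Lpar6 was shown because the listed region with Nkx2-1 deletion covered the last 76 of its bases, and Cdk6 because wildtype cells had a summit within the gene. The Lpar6 window held a Tead word, found in 12.6% of the 32851 RefSeq windows of this length, and no Sox core. Cdk4, which encodes a kinase partner of the D-type cyclins, held 4 copies of the Myc E-box and Cdk6 held 1, while 6.02% of all windows held it at all. The nearest CACGTG of Cdk4 began 11 bases before the start. Trp53, which encodes p53, held 2 Sox cores, beginning 163 and 41 bases before the start, and 25.2% of all windows held a Sox core. The Cdkn2a window on the gene's outer start held an E2F word, as did 3.82% of windows. The second Cdkn2a window, both Cdkn1a windows and the Mycn window held none of the words. A word is a match of letters only, and Trp53 had its Sox core words with no summit within 50 kb in any list.

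Mycn encodes N-Myc, the Myc family member that is prominent in embryonic and progenitor cells, including the lung bud. None of the other 9 genes had a summit within 50 kb when Sox2 was ectopic and Nkx2-1 intact. Its summit lay 41.4 kb before the Mycn start on chromosome 12, in a region at 12983086 to 12983397 with ectopic Sox2 and at 12983125 to 12983376 in wildtype (mm10), and the 2 summits were 15 bp apart. No protein-coding gene other than Mycn lay within 50 kb. The closest annotated gene of any kind was the lncRNA Gm35208, 4.14 kb away from the ectopic Sox2 summit. The site lies between genes, and Mycn itself spans 12936093 to 12941836.

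The Mycn region had 27 fragments with ectopic Sox2 (interval 17.8 to 39.3) and 27 in wildtype (17.8 to 39.3). The authors' fold over the control background was 12.3 with ectopic Sox2, sixth of the 229 summits in that list, and 7.0 in wildtype, rank 143 of 552. The recovered control background with ectopic Sox2 was 0.764 fragments, the genome-wide value of that library. In wildtype it was 2.80 times the genome-wide value there, which was 0.963 fragments. The fragment counts were thus equal and the control backgrounds were not. Scaled by depth, the ratio of fragments with ectopic Sox2 to those in wildtype was 1.26 (0.712 to 2.23), an interval that includes 1.

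With Nkx2-1 deletion the Mycn region was not listed, and the nearest summit lay 1360 kb from the gene, and 82.8% of protein-coding genes had a summit at least as near. Binding equal to that with ectopic Sox2 would have given 51.3 fragments at the depth of the Nkx2-1 deleted library, and binding equal to wildtype 40.7. At the genome-wide control background, 15 fragments would have reached the lowest −log10 p listed in that library, and 22 at the wildtype background scaled to it. If the control background there was at the genome-wide value, the Nkx2-1 deleted library had under 0.292 times the depth-scaled fragments of ectopic Sox2 and under 0.369 times those of wildtype. At the scaled wildtype background, these limits are 0.429 and 0.541. The control background at an unlisted place is unknown and counting error is left out, so these are limits under an assumption and not measurements.

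**Figure D1:**
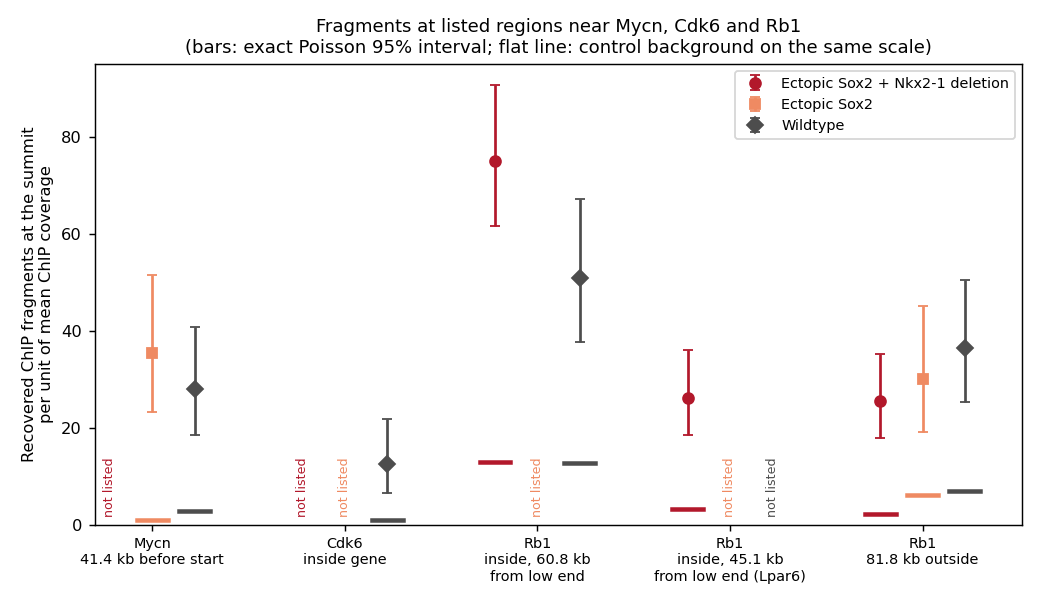
Recovered ChIP fragments per unit of mean ChIP coverage (vertical axis) at 5 regions near Mycn, Cdk6 and Rb1 (horizontal axis), for ectopic Sox2 with Nkx2-1 deletion (red circles), ectopic Sox2 (orange squares) and wildtype (grey diamonds); bars are exact Poisson 95% intervals, flat lines the control background, and regions absent from a list are marked. The Rb1 region 60.8 kb into the span stands highest, at 75.1 with Nkx2-1 deletion and 50.9 in wildtype, over backgrounds that are also the highest shown.

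Rb1 encodes the retinoblastoma protein, the brake on E2F factors that the cyclin-dependent kinases release. It was the only one of the 10 genes with a summit within 50 kb when Nkx2-1 was deleted, and it had 2 there, both inside its span (chromosome 14, 73192858 to 73325951). The table gives spans without exons, so whether a summit lay in an exon or an intron was not determined. The stronger region lay at 73253493 to 73253827, with its summit 60.8 kb from the low-coordinate end of the span. It had 109 fragments with Nkx2-1 deletion (89.5 to 131), and only 0.618% of the summits in that list had as many or more. The wildtype list held the same place, at 73253529 to 73253734, with 49 fragments (36.3 to 64.8), and the ectopic Sox2 list did not.

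The depth-scaled ratio at this Rb1 region between the Nkx2-1 deleted and wildtype libraries was 1.48 (1.04 to 2.11). Scaled instead by the 62 regions found in all 3 lists, the ratio was 1.18 (0.833 to 1.69), so the interval then included 1. The control background was high at this place in both libraries, at 18.9 fragments with Nkx2-1 deletion and 12.1 in wildtype. These are 13.0 and 12.6 times the genome-wide values. Backgrounds that high were reached at 2.12% of listed summits with Nkx2-1 deletion and at 1.45% in wildtype, and the part of the background in the result was not tested. The authors' folds were 5.24 with Nkx2-1 deletion and 3.73 in wildtype. With ectopic Sox2, binding equal to wildtype would have given 38.9 fragments, where 32 would have been needed at the wildtype background scaled to that library and 10 at its genome-wide background. Binding equal to that with Nkx2-1 deletion would have given 57.3 fragments. At the higher of these backgrounds, the ectopic Sox2 library had under 0.558 times the depth-scaled fragments of the Nkx2-1 deleted library and under 0.824 times those of wildtype, and at the genome-wide background under 0.174 and 0.257 times. The background there with ectopic Sox2 is unknown and these limits leave out counting error, so a level near that of wildtype could not be told from no binding.

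The second Rb1 summit with Nkx2-1 deletion, at 73237815 to 73238128, had 38 fragments (26.9 to 52.2), a fold of 5.70 and a control background of 4.72 fragments. It lay 75 bases after the start of Lpar6, a receptor gene for lysophosphatidic acid that is nested within the Rb1 span, in the region whose first 76 bases are the end of the Lpar6 sequence printed above. It therefore counted for Lpar6 as much as for Rb1, as did the stronger region, 13.3 kb from Lpar6. Neither other list held it. Equal binding would have given 20 fragments with ectopic Sox2 and 25.2 in wildtype, against 16 and 17 needed at the scaled backgrounds, so its absence from these shallower lists bounds the difference only loosely.

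A region 81.8 kb outside Rb1, beyond the 50 kb limit, was the one region within 100 kb of any of these genes that all 3 lists held. It had 37 fragments with Nkx2-1 deletion (26.1 to 51.0), 23 with ectopic Sox2 (14.6 to 34.5) and 35 in wildtype (24.4 to 48.7). The depth-scaled ratio was 0.846 (0.490 to 1.49) between Nkx2-1 deleted and ectopic Sox2, 0.701 (0.430 to 1.15) between Nkx2-1 deleted and wildtype, and 0.829 (0.468 to 1.44) between ectopic Sox2 and wildtype. All 3 intervals included 1. The authors' folds ran the other way for the Nkx2-1 deleted library, at 6.94 with Nkx2-1 deletion, against 3.92 with ectopic Sox2 and 4.49 in wildtype. The fold ratios of the Nkx2-1 deleted library were 1.77 over ectopic Sox2 and 1.55 over wildtype. Control backgrounds were 3.31, 4.70 and 6.75 fragments in the same order of libraries. Scaled by regions in all lists, the fragment ratio of Nkx2-1 deleted to wildtype was 0.560 (0.343 to 0.915). Its nearest protein-coding gene was Rcbtb2, 27.7 kb away, an RCC1 and BTB domain gene.

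**Figure D2:**
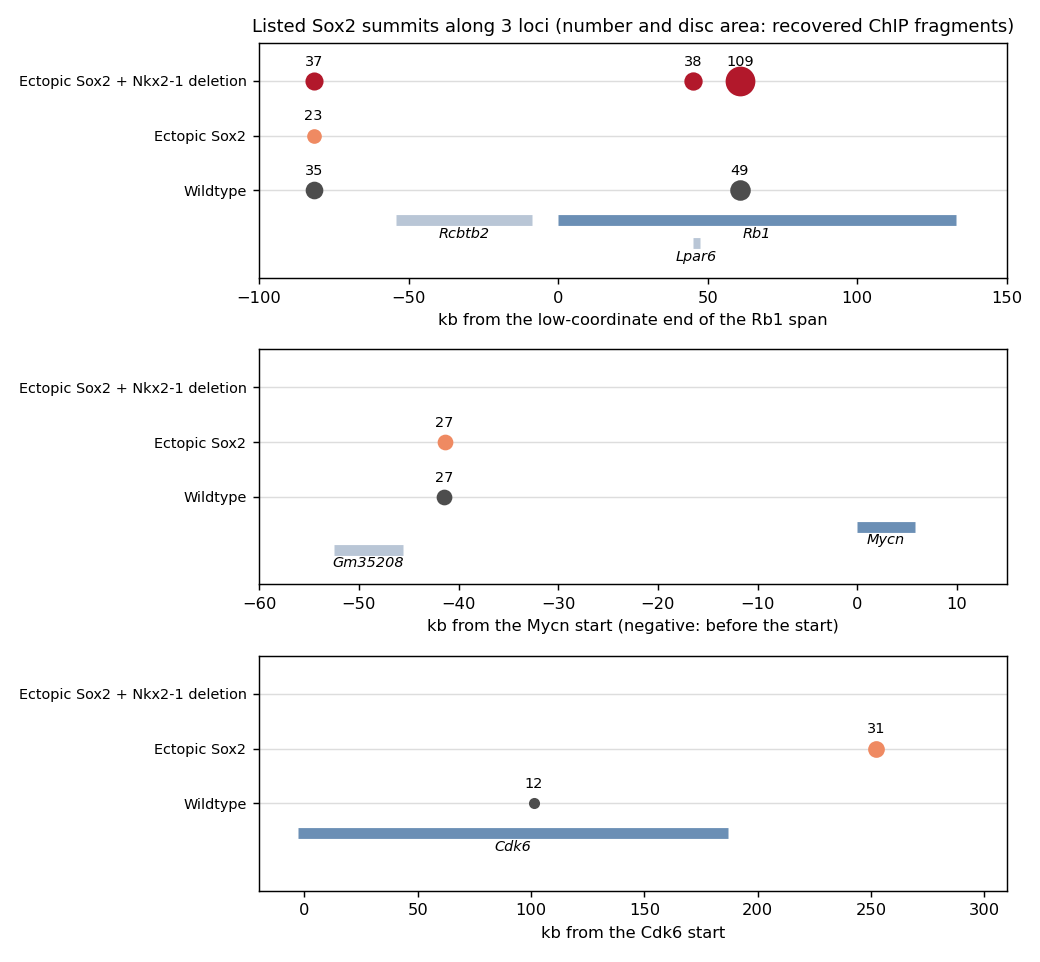
Listed Sox2 summits along Rb1, Mycn and Cdk6 (horizontal axes, kb from the low-coordinate end of Rb1 and from the starts of Mycn and Cdk6) in the 3 libraries (rows, with the Nkx2-1 deleted library on top); disc area and the number above are recovered ChIP fragments, and bars are spans of genes named in the text. Rb1 has summits inside its span with Nkx2-1 deletion and in wildtype, Mycn has 27 fragments upstream with ectopic Sox2 and in wildtype, and Cdk6 has 12 fragments inside the gene in wildtype.

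Cdk6 encodes the D-type cyclin kinase that is prominent in stem and progenitor cells. Wildtype cells had 1 summit inside it, 101 kb after its start on chromosome 5, in a region at 3445149 to 3445439. It rested on 12 fragments (6.20 to 21.0) over the genome-wide background of 0.963 fragments, with a fold of 5.77 and a −log10 q of 2.89, rank 481 of 552. It is one of the weaker wildtype summits, since 97.8% of that list had as many fragments or more. Equal binding would have given 18.1 fragments with Nkx2-1 deletion and 9.52 with ectopic Sox2, against 15 and 10 needed, so its absence from either list could not be told from equal binding at these depths. With ectopic Sox2 a different summit lay 65.2 kb beyond the end of Cdk6, with 31 fragments (21.1 to 44.0).

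The other kinase and cyclin genes had no summit within 50 kb. Cdk4, the close relative of Cdk6, had its nearest summit 575 kb away with Nkx2-1 deletion, 25573 kb with ectopic Sox2 and 144 kb in wildtype. For Ccnd1, cyclin D1, these distances were 1129 kb, 19485 kb and 12656 kb, and in wildtype 96.0% of protein-coding genes had a summit at least as near. For Ccnd2, cyclin D2, they were 142 kb, 759 kb and 759 kb.

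Myc, the archetype of its family, likewise had no summit within 50 kb. Its nearest was 371 kb away with Nkx2-1 deletion, 161 kb with ectopic Sox2 and 449 kb in wildtype. The ectopic Sox2 summit, at 62151622 to 62151821 on chromosome 15 with 19 fragments and a fold of 7.29, lay inside Pvt1, the long noncoding RNA gene next to Myc, and Myc was its nearest protein-coding gene. Only 3.58% of protein-coding genes had an ectopic Sox2 summit that near.

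The inhibitor genes and Trp53 had no summit within 50 kb either. Cdkn1a, which encodes p21, had its nearest summit 298 kb away with Nkx2-1 deletion and 1068 kb away with ectopic Sox2 and in wildtype. Cdkn2a, which encodes p16 and p19Arf, had its nearest at 324 kb, 7348 kb and 346 kb in the same order of libraries. For Trp53 the distances were 74.4 kb with Nkx2-1 deletion and 3727 kb in both other libraries. That Trp53 neighbour, with 34 fragments (23.5 to 47.5) and a fold of 5.13, lay 134 bp from Cd68, a macrophage lysosome gene, and 632 bp from Eif4a1, which encodes a translation initiation helicase, with Sox15 9.58 kb away.

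Over the 10 genes the median distance to the nearest summit was 326 kb with Nkx2-1 deletion, 913 kb with ectopic Sox2 and 398 kb in wildtype. Over all protein-coding genes it was 400.4 kb, 4264 kb and 1852 kb on the chromosomes that held a summit. The number of the 10 genes that lay nearer to a summit than the median gene was 7 with Nkx2-1 deletion, 7 with ectopic Sox2 and, for wildtype, 8, although few came within 50 kb. For Mycn, Ccnd2, Cdkn1a and Trp53, the nearest ectopic Sox2 region and the nearest wildtype region were the same place. This held for 16.5% of all genes with a distance in both lists. The Nkx2-1 deleted list had its nearest region in common with wildtype for 1 of the 10 genes, Rb1 (8.44% of all genes), and with ectopic Sox2 for 0 of the 10 (4.26% of all genes).

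**Figure D3:**
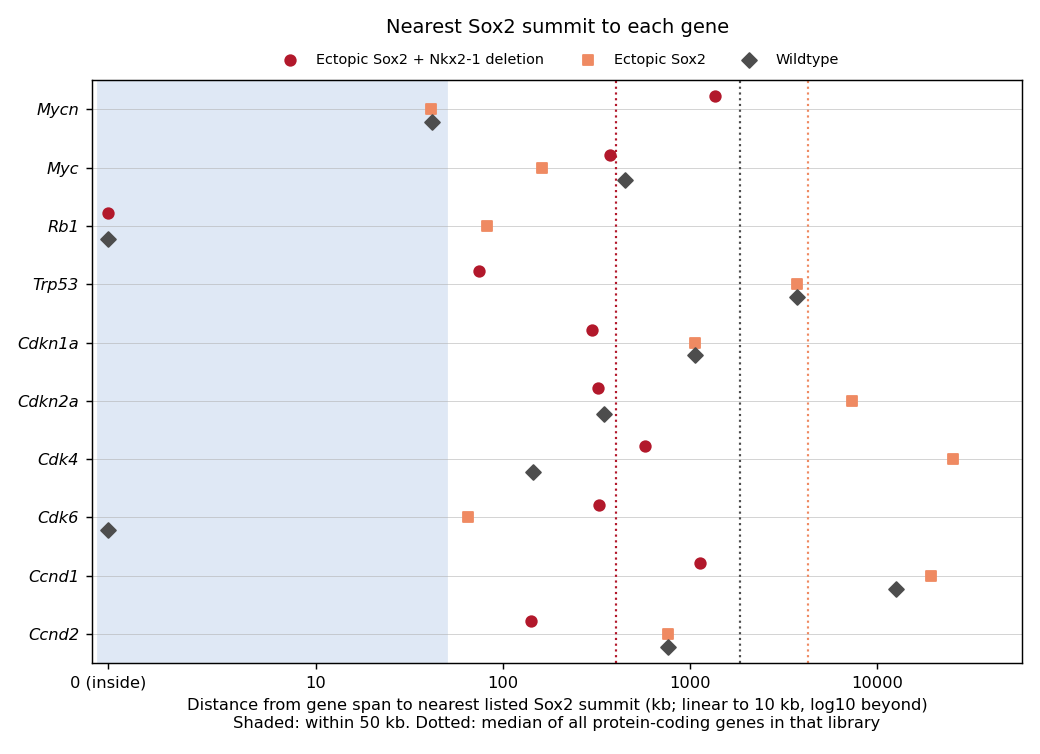
Distance in kb from each gene span to the nearest listed Sox2 summit (horizontal axis, linear to 10 kb and logarithmic beyond) for the 10 genes (vertical axis) with Nkx2-1 deletion (red circles), with ectopic Sox2 (orange squares) and in wildtype (grey diamonds); dotted lines are the medians of all protein-coding genes. Points in the shaded band, within 50 kb, belong to Mycn, Rb1 and Cdk6.

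The wider cell cycle machinery was described with 6 lists of 97 genes, which include the 10. With Nkx2-1 deletion 14 of the 97 had a summit within 50 kb, with ectopic Sox2 3, and in wildtype 8. As shares, 14.4%, 3.09% and 8.25% of the lists stood beside 13.1%, 1.53% and 2.85% of all protein-coding genes. Without the 10 genes, the counts were 13, 2 and 5 of 87. These genes were chosen with results of the same data known.

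In the list of Rb family genes, E2F factors and related genes, E2f6, which encodes a repressive E2F, had a summit 7.64 kb away. It had 64 fragments (49.3 to 81.7) with Nkx2-1 deletion, and the same place had 26 fragments (17.0 to 38.1) in wildtype. E2f5, which encodes another repressive E2F, had a summit 42.6 kb away with 25 fragments (16.2 to 36.9) with ectopic Sox2 and 36 (25.2 to 49.8) in wildtype. With Rb1 this made 2 of 19 genes with Nkx2-1 deletion, 1 with ectopic Sox2 and, for wildtype, 3. These are shares of 10.5%, 5.26% and 15.8%, beside 13.1%, 1.53% and 2.85% of all protein-coding genes. Of cyclins and kinases, Cdk2, the kinase of S-phase entry, was the only gene besides Cdk6, with 41 fragments 36.8 kb away with Nkx2-1 deletion. Of 8 kinase inhibitor genes, Cdkn2d, which encodes p19Ink4d, had 31 fragments 30.6 kb away with Nkx2-1 deletion and the other 7 had no summit. In the Myc network of 15 genes, Mxi1, an antagonist of Myc, had 3 summits with Nkx2-1 deletion, and Mycn was the other gene. The strongest Mxi1 summit by q had 73 fragments, at the same control background as the stronger Rb1 region in that library. With Nkx2-1 deletion the shares were 5.26% of cyclins and kinases, 12.5% of kinase inhibitors and 6.67% of the Myc network, all below 13.1%. With ectopic Sox2 they were 0%, 0% and 6.67%, and in wildtype 5.26%, 0% and 6.67%.

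The p53 pathway list had 7 of 17 genes near a summit with Nkx2-1 deletion, 0 with ectopic Sox2 and, for wildtype, 2, namely Trp63 and Sesn1. These are shares of 41.2%, 0% and 11.8%, beside 13.1%, 1.53% and 2.85% of all protein-coding genes. The count with Nkx2-1 deletion moved with the rule, to 3 of 17 within 10 kb (17.6%, beside 6.46% of all genes), 4 by nearest gene (23.5%, beside 8.51%) and 4 with −log10 q of at least 5 (23.5%, beside 8.83%). The 7 were the p53 relative Trp63, the p53 ubiquitin ligase gene Mdm2, the apoptosis genes Bbc3 and Pmaip1, the stress response gene Sesn1, the antiproliferative gene Btg2 and the DNA damage kinase gene Atr. Trp63, the regulator of basal cells, had 5 summits with Nkx2-1 deletion, the strongest by q inside the gene with 83 fragments (66.1 to 103), and at the same place 19 (11.4 to 29.7) in wildtype. Mdm2 had 64 fragments (49.3 to 81.7) 25.5 kb away, Bbc3 40 fragments (28.6 to 54.5) 46.7 kb away and Pmaip1 24 fragments (15.4 to 35.7) 6.05 kb away. Sesn1 had a summit inside the gene in the 2 lists, with 46 fragments with Nkx2-1 deletion and 30 in wildtype. Btg2 had 40 fragments 12.8 kb away and Atr 37 fragments 47.8 kb away. Trp53 itself was not among them. In the replication and mitosis list of 19 genes, Mcm4 and Mcm5 of the replicative helicase had 41 and 21 fragments with Nkx2-1 deletion, 29.5 kb and 19.7 kb away. Plk1, a mitotic kinase gene, had a summit 26.4 kb away with 63 fragments with ectopic Sox2 and 54 in wildtype.

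**Figure D4:**
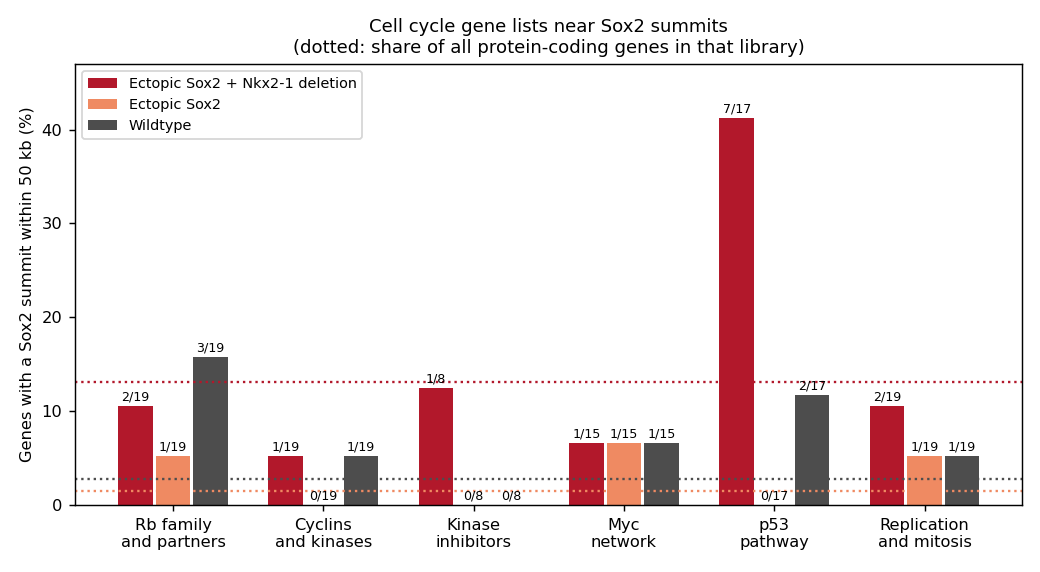
Share of each cell cycle gene list with a Sox2 summit within 50 kb (vertical axis, percent; lists on the horizontal axis) with Nkx2-1 deletion (red bars), with ectopic Sox2 (orange) and in wildtype (grey), with the count over each bar and the share of all protein-coding genes as a dotted line in the library's colour. The p53 pathway list stands at 7 of 17 genes with Nkx2-1 deletion, a count that was 3 within 10 kb and 9 within 100 kb. The other 5 lists with Nkx2-1 deletion lie below the dotted line of that library.

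Genes of like pattern were sought by the largest fold within 50 kb over the 3 libraries, as a Euclidean distance in log2 units. Nearest to Mycn was Galntl6, with no summit with Nkx2-1 deletion, a fold of 14.2 with ectopic Sox2 and 7.82 in wildtype, at a distance of 0.263. It was followed by Acsl3 and Utp14b at 0.493, which had the same folds, 8.71 with ectopic Sox2 and 6.92 in wildtype. With equal folds in both lists, these genes may count the same summits. In all, 44 protein-coding genes had summits with ectopic Sox2 and in wildtype without one when Nkx2-1 was deleted. Nearest to Rb1 were Ank3 at 0.096, Kif16b at 0.122 and Gm10209 at 0.194, among 278 genes with summits with Nkx2-1 deletion and in wildtype and none with ectopic Sox2. The Rb1 pattern mixed different places. Its largest fold with Nkx2-1 deletion, 5.70, was at the Lpar6 start, and that in wildtype, 3.73, was at the stronger region.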

How the data were processed

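Of the 9 libraries, peak lists of the 3 made with the Sox2 antibody were used; the 6 of input DNA and IgG were not used here. Per the labels' protocols, chromatin was crosslinked with a succinimidyl ester and formaldehyde, and libraries were read as single 50 bp ends. The submitters' processing notes name Bowtie2 2.2.9, SAMtools 1.4, MACS2 2.1.1, HOMER 4.8.3 and the build mm10. No source used here gives the control behind each list, the calling threshold or the treatment of duplicates.

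The deposited lists give, for each summit, a score, a fold ratio over local background, −log10 p and −log10 q, all made by the authors with their peak caller; peaks were called per library, not on pooled libraries. Positions, which the files count from 0, are printed from 1. From fold and −log10 p, with a pseudocount of 1 and a Poisson tail, the ChIP pileup and control background were solved at each summit. Pileups were whole fragments times 1 scale per list, within a tolerance of 0.02, for 100% of summits; where several solutions remained (87 summits with Nkx2-1 deletion, 9 with ectopic Sox2 and 14 for wildtype, none within 100 kb of the 10 genes) the closest was taken. The recovery of fragments was tested on summits simulated with each list's own scale and genome-wide background. The step that set this scale and background, and so the mean coverage, was not tested. Mean coverage is the genome-wide background, as solved, over the scale of the list, not a read total. Control backgrounds at summits are printed in fragments, divided by the same scale. The authors' folds use the values before this division.

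Ratios between libraries are fragments divided by the depth ratio, with exact conditional binomial intervals; intervals on fragments are exact Poisson. Reads without molecular identifiers are not independent molecules. A gene was near a summit inside its span or within 50 kb. The named genes are the 10 genes, list genes with a summit in any library, genes sharing a summit with one of the 10, and the 3 of most like pattern. Members, lists and limits were chosen with earlier results of these data known. Sequences at summits were not examined, since no genome was used here; promoter sequences are from RefSeq. Computations used Python 3.11.15, numpy 2.4.6, pandas 2.3.3 and scipy 1.17.1.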

Additional observations from a re-analysis of the deposited data

How the results depend on the processing

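Counts of the 10 genes near a summit depended on the window. In the order Nkx2-1 deletion, ectopic Sox2, wildtype, there were 1, 0 and 2 within 10 kb (6.46%, 0.736% and 1.37% of all protein-coding genes), and within 100 kb 2, 3 and 3 (20.7%, 2.45% and 4.66%). By nearest gene they were 4, 2 and 4 (8.51%, 1.02% and 2.19%), and with −log10 q of at least 5 they were 1, 1 and 2 (8.83%, 1.18% and 1.87%). Counts of the 97 list genes were 14, 3 and 8 within 50 kb, 5, 0 and 5 within 10 kb, 23, 5 and 9 within 100 kb, 10, 2 and 8 by nearest gene, and 9, 2 and 5 with −log10 q of at least 5. Using whole regions changed neither set of counts. Leaving out regions in all 3 lists could not change the counts of the 10 genes, since no such region lay within 50 kb of them. The counts of the 97 list genes stayed the same. The 2 regions shared between lists within 50 kb, at Mycn and Rb1, were also shared at 50% reciprocal overlap, by summits within 250 bp and with −log10 q of at least 5 in both.

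The Mycn ratio of ectopic Sox2 to wildtype was 1.33 scaled by common regions, 1.36 with background subtracted and 1.75 by the authors' folds. The ratio inside Rb1 was 1.18, 1.62 and 1.4 in the same order. At the region 81.8 kb from Rb1, the authors' folds gave 1.77 for Nkx2-1 deleted over ectopic Sox2 and 1.55 for Nkx2-1 deleted over wildtype, where fragments gave 0.846 and 0.701; the control background differed between these libraries. No paired analysis was possible because each condition has 1 library, and leaving out a replicate was not possible for the same reason.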
